A study of Caenorhabditis elegans with 15 samples.

Results

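The 10 genes described here encode enzymes of the citrate cycle, its entry from pyruvate and its glyoxylate bypass in Caenorhabditis elegans. They are cts-1, aco-2, idh-1, idha-1, ogdh-1, dlst-1, fum-1, mdh-2, icl-1 and pdha-1, chosen by name out of 46904 genes in the deposited transcript map, and all 10 were measured and passed the filter on low counts. RNA came from intestines dissected from worms after 5 days of growth on NGM plates with OP50 bacteria, 20 intestines to a library, with 5 libraries in each of 3 groups. The first group was wild type. The second carried gas-1(fc21), an allele of a subunit gene of respiratory complex I. The third, called OE here, carried the same gas-1(fc21) allele together with cest-2.2 O/E, where O/E is read as overexpression. No group analysed here had cest-2.2 overexpressed without gas-1(fc21). The promoter and form of the cest-2.2 construct, and whether the 5 libraries of a group came from separate cultures, are not given in the sources used here. The p-values therefore set group differences against the spread between these libraries, which may not be the spread between separate cultures.

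In the citrate cycle, citrate synthase (cts-1) joins acetyl-CoA from the pyruvate dehydrogenase complex (pdha-1) with oxaloacetate. Aconitase then turns citrate into isocitrate. Isocitrate dehydrogenase and oxoglutarate dehydrogenase carry out oxidations with loss of carbon dioxide, and fumarase and malate dehydrogenase restore oxaloacetate. The NADH made on the way is oxidised by complex I, which contains the GAS-1 protein. The glyoxylate bypass skips both steps that release carbon dioxide, and in C. elegans a single fused protein, ICL-1, carries its isocitrate lyase and malate synthase activities, which lets worms make sugar from stored fat.

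Total estimated counts ran from 12182697 to 45896053 per library, and the 10 genes together took 0.183% to 0.277% of them. The gas-1 transcript itself was at 67.8 ± 14.4 CPM for wild type, 124 ± 20.8 for gas-1 and 121 ± 28.1 for OE, and since fc21 is a point mutation this level is no check of the genotype. The cest-2.2 transcript was at 42.2 ± 17.4 CPM for wild type, 56.1 ± 24.2 for gas-1 and 121 ± 42.7 for OE (SD, n = 5 each; CPM are counts scaled to a common library size by TMM, a method that sets the bulk of genes level between libraries). The cest-2.2 difference between OE and gas-1 did not pass the test over all genes (log2 1.11 ± 0.33, edgeR adjusted p 0.109). Against wild type it passed in OE (1.52 ± 0.34, adjusted p 0.0112) and not in gas-1 (0.41 ± 0.33, adjusted p 0.383). The gas-1 transcript passed as higher than wild type in gas-1 (0.87 ± 0.19, adjusted p 0.00653) and in OE (0.83 ± 0.19, adjusted p 0.0144). The labelled tissue was checked on 14 intestine markers, averaging, in log2 CPM, 5.16 to 6.32 for wild type, 6.93 to 7.66 for gas-1 and 6.20 to 7.60 for OE. Markers of germline and of oocytes were present in every library. Germline markers averaged 7.08 to 7.37 for wild type, 6.28 to 7.05 for gas-1 and 6.76 to 7.46 for OE. Oocyte markers averaged 8.92 to 9.18, 7.82 to 8.56 and 8.22 to 9.18 in that order. In wild type both lists averaged above the intestine list in every library, though averages over different genes do not measure shares of tissue. Of 9 sperm markers spe-41 was counted in all 15 libraries, 3 (spe-11, msd-1 and nspd-1) had under 1 count in all 15 and the other 5 had under 1 count in 11 to 14. Body wall muscle markers stood at 6.19, 5.32 and 6.77 in wild type replicates 1, 2 and 4 and between 1.89 and 4.47 in the other 12 libraries.

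Between gas-1 and wild type, 2 of the 10 genes rose and 0 fell. The citrate synthase gene cts-1 was 2.27 times as high in gas-1, and idh-1, the cytosolic NADP-dependent isocitrate dehydrogenase gene, 1.5 times. Between OE and gas-1, 0 of the 10 passed the test. Between OE and wild type, 3 rose and 0 fell: cts-1, idh-1 and ogdh-1, a subunit gene of oxoglutarate dehydrogenase. Of all 10585 genes tested by edgeR's quasi-likelihood test at a Benjamini-Hochberg adjusted p under 0.05, 12.8% were called higher and 8.63% lower in gas-1 than in wild type, 7.09% higher and 2.24% lower in OE than in wild type, and 1.59% different between OE and gas-1. Against these backgrounds the 10 genes gave counts of 2, 3 and 0, and both comparisons with wild type share the same 5 wild type libraries. The median log2 change of the 10 genes was 0.29 in gas-1 and 0.34 in OE against wild type, where the medians of all genes were -0.11 and -0.04, and it was 0.06 between OE and gas-1 (all genes 0.03). In OE against gas-1 the number of the 10 genes at an unadjusted p under 0.05 was 0 with edgeR, where 15.9% of all genes were, and DESeq2 also called 0 of the 10. Testing TPM, or leaving out wild type replicates 1, 2 and 4, left 1 call in each comparison with wild type, that of cts-1. The size of the changes depended on scaling. On TPM the log2 change in gas-1 was 0.93 for cts-1, 0.35 for idh-1 and 0.21 for ogdh-1. It was 0.02 to 0.07 for aco-2, idha-1, dlst-1 and fum-1 and negative for pdha-1, where the median of all genes was -0.32.

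**Figure D1:**
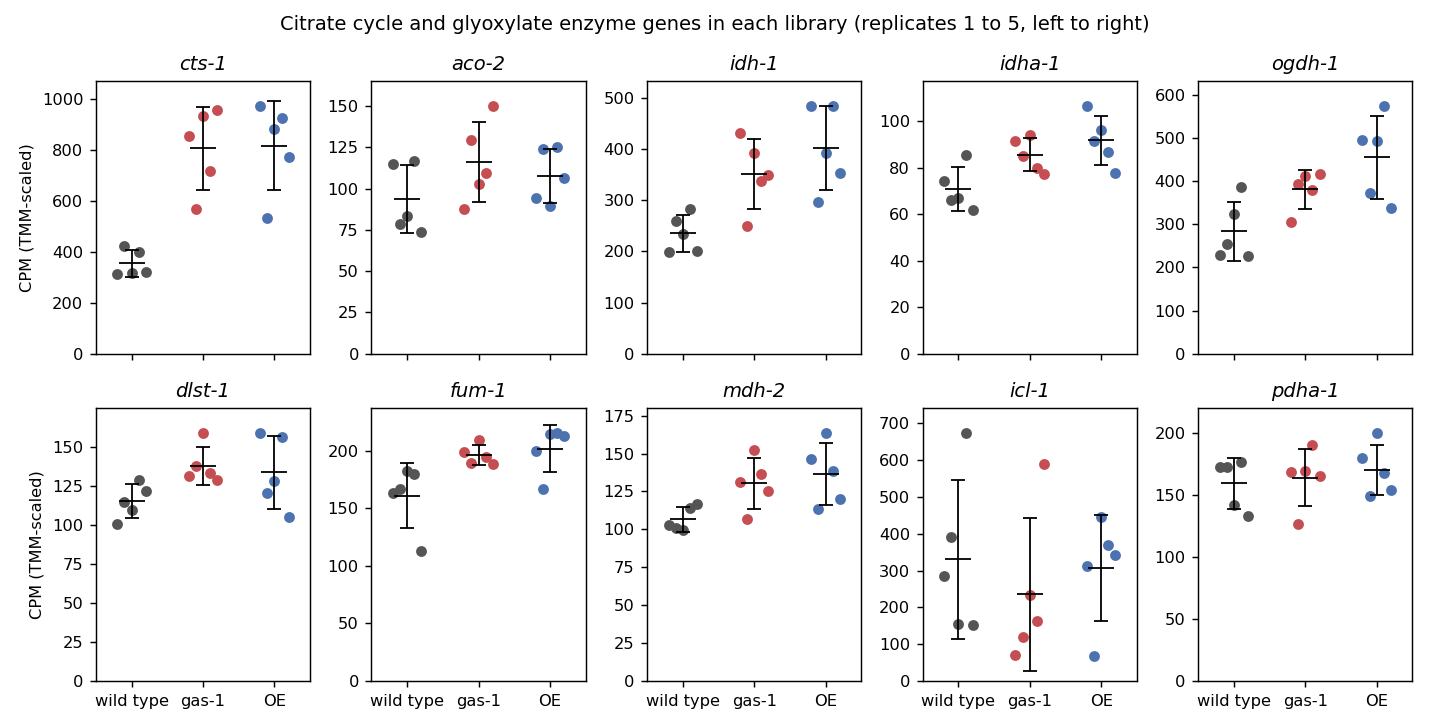
Level of each of the 10 genes in CPM (vertical axes from 0, a separate scale per gene) in the 5 libraries of wild type, gas-1 and OE. Points are libraries, replicates 1 to 5 from left to right, and bars are the mean and SD. For cts-1, wild type lies between 313 and 425 CPM, below all mutant libraries, while icl-1 overlaps widely. Of all genes, 9.62% separate upward in this way for gas-1 and 4.19% for OE.

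Per length, in TPM (a share of all transcripts that also corrects for their length), cts-1 and idh-1 had the highest mean levels of the 10 genes in all 3 groups. In wild type cts-1 was at 402 ± 67.3 TPM and idh-1 at 392 ± 37.3 TPM (SD, n = 5), with overlapping ranges. The next gene, fum-1, stood at 189 ± 26.8 TPM, and its range did not reach that of idh-1. From there each gene overlapped the next one down, through pdha-1 (187 TPM), icl-1 (183 TPM), ogdh-1 (163 TPM), dlst-1 (133 TPM), mdh-2 (126 TPM) and idha-1 (91.2 TPM) to aco-2 (68.8 ± 13.8 TPM). In gas-1 and OE the gap below idh-1 was again the one place where neighbouring ranges did not overlap, and aco-2 was again lowest, at 72.2 ± 11.8 and 62.4 ± 16 TPM. Averaged over the 15 libraries, cts-1 exceeded 98.2% of tested genes in TPM and aco-2 exceeded 85.5%.

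The entry steps were the pyruvate dehydrogenase complex and citrate synthase. The gene pdha-1 (chromosome II, 8066285 to 8068184, WBcel235) encodes the alpha subunit of the complex's first enzyme. Its level was 133 to 177 CPM for wild type, 127 to 191 for gas-1 and 150 to 200 for OE. The 3 ranges overlapped, and the log2 change was 0.04 ± 0.15 (SE) in gas-1 and 0.09 ± 0.15 in OE against wild type, with adjusted p of 0.854 and 0.725. The 95% intervals ran from -0.27 to 0.35 and from -0.21 to 0.40. Libraries carry no strand information, and pdha-1 shares 209 exon bases with gpcp-2 on the other strand, whose median level was 55.3 CPM without TMM scaling, so reads in the shared stretch cannot be told apart. Opposite-strand overlaps of cts-1, aco-2, idh-1, idha-1 and fum-1 spanned 26 to 97 exon bases, with partners at a median of 3.25 CPM or less.

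The citrate synthase gene cts-1 (chromosome III, 10214771 to 10216635) had 313, 425, 317, 399 and 324 CPM in wild type replicates 1 to 5. In gas-1 it had 857, 569, 936, 720 and 957 CPM. In OE it had 975, 534, 884, 928 and 774 CPM. No mutant library reached down to the highest wild type library, and replicate 2 was the lowest in either mutant group. Such a separation upward was seen in 9.62% of all genes for gas-1 and in 4.19% for OE. The rise was 1.18 ± 0.19 on the log2 scale in gas-1 (95% interval 0.78 to 1.59, edgeR adjusted p 0.00069) and 1.2 ± 0.19 in OE (0.80 to 1.61, adjusted p 0.00145). The log2 difference between OE and gas-1 was 0.02 ± 0.19 with an interval of -0.38 to 0.42 (adjusted p 0.977). The call against wild type held in 22 of 24 alternative settings for gas-1 and 23 of 24 for OE. Of these 24, 15 left out a single library, in some cases from the group outside the comparison, so they are not independent checks. It was lost in gas-1 with the germline marker level as a covariate (log2 0.53, adjusted p 0.237), and with the intestine marker level as a covariate it was lost in both mutant groups (0.44 with adjusted p 0.596 and 0.57 with 0.4). Both marker levels separated wild type from gas-1 without overlap. Here and for the genes below, what these covariates remove therefore cannot be told apart from the group difference.

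**Figure D2:**
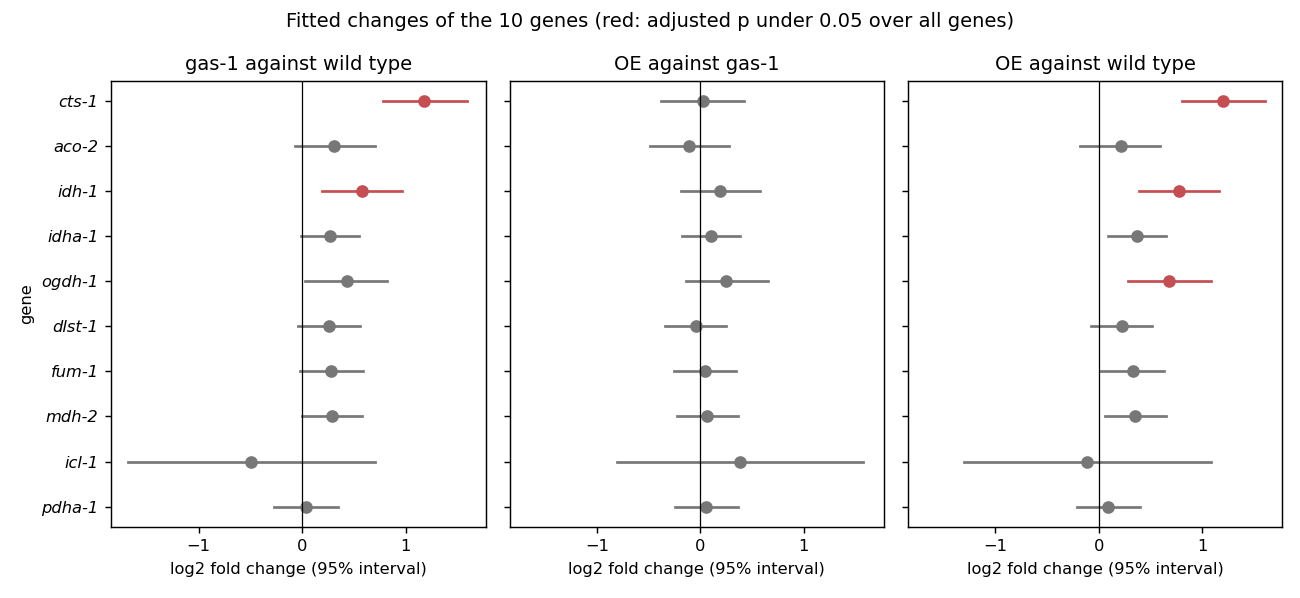
Fitted log2 fold change (horizontal axes) of each gene in the 3 comparisons, with 95% intervals as lines and genes past an adjusted p of 0.05 in red. The citrate synthase gene cts-1 stands at 1.18 and 1.2 against wild type and at 0.02 between OE and gas-1, and icl-1 has the widest intervals.

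Aconitase turns citrate into isocitrate. The mitochondrial aconitase gene aco-2 (chromosome III, 7973717 to 7977355) had 73.8 to 116 CPM for wild type, 87.7 to 150 for gas-1 and 89.4 to 125 for OE. The groups overlapped, and the log2 change was 0.31 ± 0.18 in gas-1 (adjusted p 0.22) and 0.21 ± 0.18 in OE (adjusted p 0.507). The upper ends of the intervals, 0.70 and 0.59, lay below the lower ends for cts-1. Gas-1 replicate 2, the lowest of its group in cts-1, was the second highest of its group in aco-2, at 130 CPM.

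Isocitrate is oxidised to oxoglutarate by different enzymes in different compartments. For idh-1 (chromosome IV, 9439078 to 9441107), whose cytosolic enzyme makes NADPH, wild type had 198, 260, 234, 283 and 201 CPM. The gas-1 libraries had 431, 249, 393, 337 and 349 CPM, so that 4 of 5 lay above all wild type libraries and replicate 2 lay among them. The OE libraries had 484, 296, 392, 485 and 353 CPM, all above wild type, a separation seen in 4.19% of all genes. The log2 rise was 0.58 ± 0.18 in gas-1 (interval 0.19 to 0.97, adjusted p 0.0337) and 0.77 ± 0.18 in OE (0.39 to 1.16, adjusted p 0.0155). In gas-1 the call was lost when some single libraries were left out, while the log2 change moved little. Without wild type replicate 1, 3 or 5 the adjusted p was 0.0577, 0.0609 and 0.0589 (log2 0.58, 0.58 and 0.60). Without gas-1 replicate 1 or 3 it was 0.0828 and 0.0799 (log2 0.50 and 0.54). With the germline or intestine marker level as a covariate the log2 change in gas-1 was -0.003 and -0.13. The adjusted p there was 0.999 and 0.921, with the same limit on covariates as for cts-1. In OE the call was lost on TPM (0.36, adjusted p 0.104), with the intestine covariate (0.18, adjusted p 0.907) and without wild type replicates 1, 2 and 4 (0.90, adjusted p 0.115).

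By contrast idha-1 (chromosome I, 8606549 to 8608631), the alpha subunit gene of the mitochondrial NAD-dependent enzyme that runs the cycle forward, did not pass the test. It had 61.5 to 85.5 CPM for wild type, 77.3 to 94 for gas-1 and 77.7 to 106 for OE. The log2 change was 0.27 ± 0.13 in gas-1 (adjusted p 0.141) and 0.37 ± 0.13 in OE (adjusted p 0.0869). In OE it passed without wild type replicate 4 (adjusted p 0.0472), gas-1 replicate 2 (0.0498) or OE replicate 2 (0.0475), and with DESeq2 (0.0404). The interval in OE, 0.09 to 0.65, overlapped that of idh-1.

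The deposited estimates split idh-1 over 4 transcripts. F59B8.2a.2, of 1457 bases, took 53.9% ± 3.48 of the gene's TPM for wild type, 53.9% ± 4.41 for gas-1 and 57.1% ± 3.33 for OE. F59B8.2c.1, of 714 bases, took 42% ± 3.23, 44% ± 3.86 and 39% ± 2.06 (SD, n = 5 each). The ranges of these shares overlapped between all 3 groups. The short transcript raises the per-length level of idh-1, so its place beside cts-1 in TPM depends on that estimate, while the comparisons between groups used counts.

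**Figure D3:**
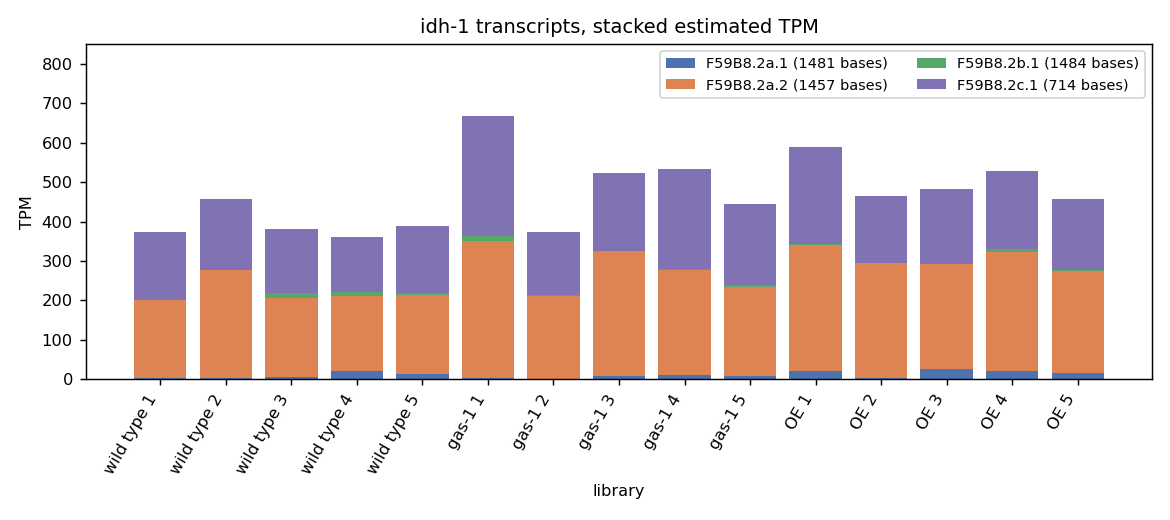
Estimated TPM of the 4 idh-1 transcripts stacked per library (vertical axis, TPM). F59B8.2a.2 (1457 bases) and F59B8.2c.1 (714 bases) make up nearly all of the gene in every library, and the highest total is 668 TPM in gas-1 replicate 1.

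Oxoglutarate dehydrogenase releases the second carbon dioxide of the cycle. Its E1 subunit gene ogdh-1 (chromosome IV, 4696979 to 4704011) had 228, 253, 323, 385 and 227 CPM in wild type. In gas-1 it had 305, 392, 411, 379 and 417 CPM, and in OE 495, 373, 493, 574 and 338 CPM. Wild type replicates 3 and 4 overlapped gas-1, and replicate 4 alone overlapped OE. The log2 change was 0.43 ± 0.19 in gas-1 (interval 0.03 to 0.82, adjusted p 0.108), which did not pass, and 0.68 ± 0.19 in OE (0.28 to 1.08, adjusted p 0.0323), which did. The difference between OE and gas-1 itself was 0.25 ± 0.19 (interval -0.14 to 0.65, adjusted p 0.554), so the mutant groups were not shown to differ. The OE call was lost without wild type replicate 1, 2 or 5 (adjusted p 0.0664, 0.0579 and 0.0648) or OE replicate 1, 3 or 4 (0.0768, 0.0659 and 0.0853), and the gas-1 change passed without wild type replicate 4 (0.0384). The OE call was also lost on TPM (0.31, adjusted p 0.127) and with the germline (0.62, adjusted p 0.0754) or intestine covariate (0.18, adjusted p 0.913).

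The E2 subunit gene of the same complex, dlst-1 (chromosome V, 6707056 to 6709101), which encodes dihydrolipoyl succinyltransferase, did not pass in any comparison. It had 100 to 129 CPM for wild type, 129 to 159 for gas-1 and 105 to 159 for OE. The ranges of wild type and gas-1 met at 129 CPM, and the log2 change was 0.26 ± 0.14 in gas-1 (adjusted p 0.184) and 0.22 ± 0.14 in OE (adjusted p 0.356). The E1 gene ogdh-1 has a minor transcript, T22B11.5a.1, whose share of the gene's TPM was 2.64% ± 1.11 for wild type, 4.53% ± 3.1 for gas-1 and 7.92% ± 3.52 for OE, with overlapping ranges.

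The closing steps of the cycle are those of fumarase and malate dehydrogenase. For fum-1 (chromosome III, 7465605 to 7467640) the range was 113 to 182 CPM for wild type, 188 to 209 for gas-1 and 167 to 216 for OE. Gas-1 and wild type did not overlap, as in 9.62% of all genes in that direction, yet the change did not pass the test (log2 0.28 ± 0.14, adjusted p 0.157). OE and wild type overlapped, and that change did not pass either (0.33 ± 0.14, adjusted p 0.165). Wild type replicate 5, at 113 CPM, lay well below the other 4 wild type libraries at 164 to 182 CPM. The mitochondrial malate dehydrogenase gene mdh-2 (chromosome III, 6606544 to 6608106) had 99.3 to 117 CPM for wild type, 107 to 152 for gas-1 and 113 to 164 for OE. Its log2 change was 0.29 ± 0.14 in gas-1 (adjusted p 0.136) and 0.35 ± 0.14 in OE (adjusted p 0.119). In each comparison 4 of 5 mutant libraries exceeded all of wild type, and the exception was replicate 2 of the mutant group. Without gas-1 replicate 2 the gas-1 change passed (0.43, adjusted p 0.0362), and without OE replicate 2 the OE change passed (0.47, adjusted p 0.0296).

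Replicate 2 thus had the lowest level of cts-1, idh-1, mdh-2 and pdha-1 of the 5 libraries in both mutant groups. These libraries had the highest germline marker level of their groups (7.05 in gas-1 and 7.46 in OE, the others being 6.28 to 6.76 and 6.76 to 7.05) and the lowest intestine marker level (6.93 and 6.20, the others 7.12 to 7.66 and 7.12 to 7.60). With both left out, 3 of the 10 genes rose in gas-1 and 5 in OE against wild type, cts-1 by 1.36 and 1.38 on the log2 scale, and 0 passed between OE and gas-1. In the same fit 1754 of 10919 genes were called higher in gas-1 and 1290 in OE, also more than with all libraries (1355 and 751 of 10585). Since these libraries were known to be low in the genes named, higher counts without them say nothing of their own. The part that germline tissue plays in the levels of these genes was not tested.

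The glyoxylate bypass gene icl-1 (chromosome V, 724332 to 728004) was the most variable of the 10. Wild type had 284, 391, 155, 674 and 151 CPM, gas-1 had 70.2, 119.2, 233, 163 and 590 CPM, and OE had 311, 66.7, 444, 370 and 341 CPM. The groups overlapped widely, and OE had 1 library at the bottom of the range and the other 4 at 311 to 444 CPM. The pooled within-group SD of log2 CPM was 1.06, larger than in 76.8% of tested genes, against 0.16 to 0.30 for the other 9 genes, and the median of all tested genes was 0.52. The log2 change was -0.49 ± 0.56 in gas-1 (interval -1.68 to 0.70, adjusted p 0.549), -0.11 ± 0.56 in OE against wild type (-1.3 to 1.08, adjusted p 0.931) and 0.38 ± 0.56 in OE against gas-1 (-0.81 to 1.57, adjusted p 0.794). These intervals include sizeable changes in either direction. Single libraries moved the values: the gas-1 change was -0.07 without wild type replicate 4 and -1.14 without gas-1 replicate 5, and OE against gas-1 was 0.15 without gas-1 replicate 1 and 1.04 without gas-1 replicate 5. With the germline and the intestine covariate the gas-1 change was -2.26 and -2.47 (adjusted p 0.156 and 0.347).

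The 3 wild type libraries with the highest icl-1 levels were replicates 1, 2 and 4, those with the high body wall muscle markers. Muscle is a tissue in which C. elegans also makes ICL-1. Among the mutant libraries, whose muscle markers were between 1.89 and 4.47, icl-1 ranged from 66.7 to 590 CPM. Without wild type replicates 1, 2 and 4 the log2 change of icl-1 was 0.63 in gas-1 (adjusted p 0.621) and 1.01 in OE (adjusted p 0.564). Its direction against wild type thus turned. Since those replicates were the highest of wild type in icl-1, the turn followed from which libraries were left out and says nothing of its own. The part of muscle RNA in the icl-1 levels was not tested. In bulk samples like these, fewer cells of a type and less RNA per cell cannot be told apart.

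The balance between bypass and oxidative route was followed as the log2 ratio of icl-1 to idha-1 and to ogdh-1 counts within each library, which does not depend on library scaling. The icl-1 to idha-1 ratio was 1.93, 2.56, 1.21, 2.98 and 1.29 in wild type, -0.38, 0.49, 1.31, 1.02 and 2.93 in gas-1, and 1.55, -0.45, 2.21, 2.09 and 2.13 in OE. In gas-1, replicate 5 stood with the highest wild type library, and 3 of the other 4 lay below all of wild type. The mean difference between gas-1 and wild type was -0.92 for icl-1 to idha-1 (exact two-sided permutation p 0.206) and -1.1 for icl-1 to ogdh-1 (exact permutation p 0.0952). Without wild type replicates 1, 2 and 4 these differences were -0.18 and -0.25, and with single libraries left out they ran from -1.38 to -0.56 and from -1.49 to -0.83. Replicates 1, 2 and 4 had the highest ratios of wild type, so smaller differences without them say nothing of their own. The smallest p that 5 against 5 allows is 0.00794. None of the 6 ratio tests passed after Benjamini-Hochberg adjustment over the 6, where adjusted p was 0.413 to 0.651. The differences between OE and gas-1 were 0.43 and 0.29 (exact permutation p 0.563 and 0.651).

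**Figure D4:**
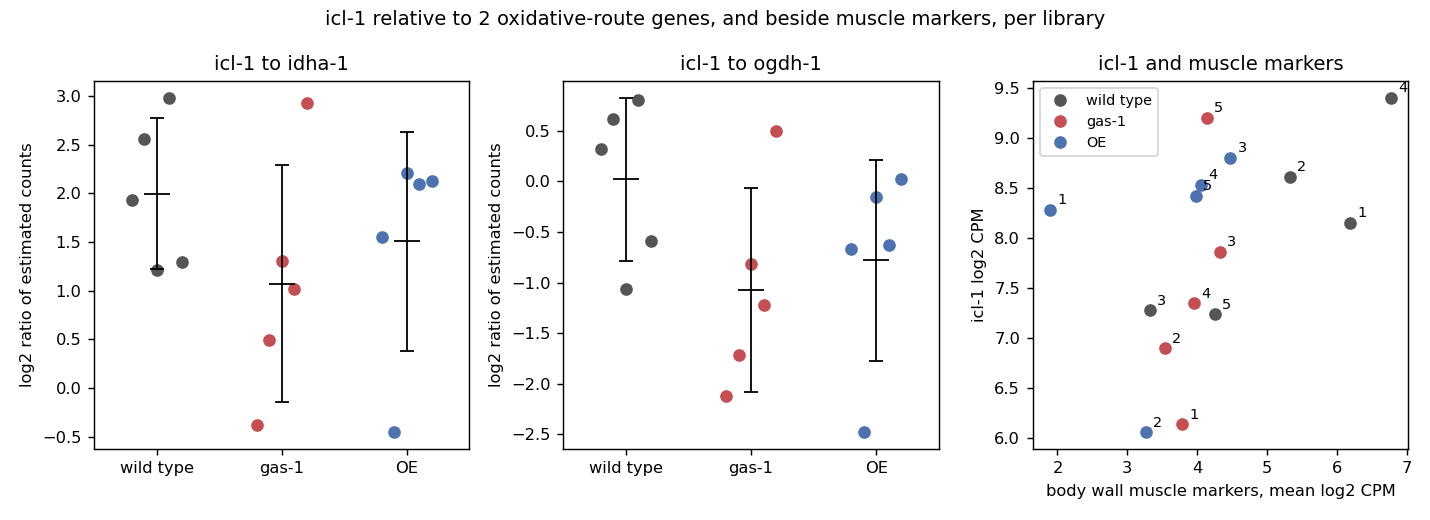
Left and middle, log2 ratio of icl-1 counts to idha-1 and to ogdh-1 counts in each library (points, with mean and SD). Right, icl-1 log2 CPM against the mean log2 CPM of 12 body wall muscle markers, numbered by replicate; wild type replicates 1, 2 and 4 lie to the right, at 5.32 to 6.77.

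The genes whose course over the 15 libraries was most like that of cts-1, by the root mean square difference of log2 CPM centred on each gene's mean, were inx-17 (0.15), F07H5.5 (0.17) and ctl-1 (0.17). The innexin gene inx-17 codes for a gap junction protein and had 12.8 ± 1.64, 31.8 ± 9.71 and 32.5 ± 9.07 CPM in wild type, gas-1 and OE. The catalase gene ctl-1, which has close paralogs that reads could be split with, had 60.7 ± 14.3, 122 ± 25 and 123 ± 32.3 CPM. Among the 10 genes, idh-1 was nearest to cts-1 (0.28), with 85 other genes nearer. For icl-1 the nearest genes were poml-3 (0.55), clec-218 (0.56), a C-type lectin gene, and bca-1 (0.57), a beta carbonic anhydrase gene. No other member of the 10 came closer to icl-1 than pdha-1, at 0.92. Small distances favour genes of small spread, and mdh-2 and dlst-1 (0.16) were the closest pair of members.

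Companion genes of the pathway were read from lists of names. Of all genes tested, 12.8% were called higher and 8.63% lower in gas-1 than in wild type. In OE these shares were 7.09% and 2.24%. Of 9 genes of pyruvate entry, 1 rose in gas-1 and 1 in OE against wild type, and both times it was dld-1, the dihydrolipoamide dehydrogenase shared by the pyruvate and oxoglutarate complexes. It had 149 to 175 CPM for wild type, 186 to 275 for gas-1 and 176 to 277 for OE (log2 0.56 ± 0.15 in each, adjusted p 0.0178 and 0.0302). Of the other subunit genes listed for the pyruvate complex, pdhb-1 and dlat-1 had log2 values of 0.08 ± 0.14 each in gas-1 (adjusted p 0.69 each). The third, dlat-2, had 0.41 ± 0.16 (adjusted p 0.0737), with 30 to 37.3 CPM in gas-1 and 18.7 to 29.6 CPM in wild type. These ranges did not overlap, as in 9.62% of all genes in that direction. The list's medians were 0.11 and 0.06.

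Of 15 further cycle genes tested, 4 rose and 1 fell in gas-1 against wild type, and 4 rose and 0 fell in OE. The shares over all genes were 12.8% higher and 8.63% lower in gas-1, and 7.09% and 2.24% in OE. The succinyl-CoA ligase alpha subunit gene sucl-1 rose from 49 ± 6.48 to 97.1 ± 16.5 CPM in gas-1 and 95.6 ± 26.3 in OE (log2 0.99 ± 0.19 and 0.96 ± 0.19, adjusted p 0.00267 and 0.00597). Neither mutant group overlapped wild type, a separation seen upward in 9.62% of all genes for gas-1 and 4.19% for OE. The complex II iron-sulfur subunit gene sdhb-1 rose by 0.75 ± 0.17 and 0.61 ± 0.17 (adjusted p 0.00731 and 0.0339). The cytosolic aconitase gene aco-1 rose by 1.06 ± 0.29 and 1.33 ± 0.29 (adjusted p 0.0178 and 0.0104). The gamma subunit gene idhg-2 of NAD-dependent isocitrate dehydrogenase rose in gas-1 at a low level, from 4.32 ± 2.16 to 10.4 ± 3.59 CPM (1.28 ± 0.38, adjusted p 0.0276), and stood at 3.91 ± 1.78 CPM in OE, where the difference from gas-1 did not pass (-1.42 ± 0.39, adjusted p 0.0798). The fifth call in gas-1 was sucg-1, the GTP-specific beta subunit gene of succinyl-CoA ligase, which fell from 47.2 ± 6.54 to 28.4 ± 9.3 CPM (-0.74 ± 0.23, adjusted p 0.0331). Its ATP-specific counterpart suca-1 rose in OE (0.68 ± 0.19, adjusted p 0.0329). The list's medians were 0.39 and 0.32.

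Of 14 tested enzymes and carriers that connect to the cycle, 1 rose and 1 fell in gas-1, and 2 rose and 0 fell in OE against wild type. Over all genes 12.8% rose and 8.63% fell in gas-1, and 7.09% and 2.24% in OE. The glutamate dehydrogenase gene gdh-1, which feeds oxoglutarate into the cycle, rose from 1067 ± 236 to 1926 ± 315 CPM in gas-1 (0.85 ± 0.19, adjusted p 0.00694) and 2030 ± 426 in OE (0.93 ± 0.19, adjusted p 0.00815). The ATP citrate lyase gene acly-2, whose enzyme splits cytosolic citrate, fell in gas-1 from 230 ± 23.5 to 150 ± 27.8 CPM (-0.62 ± 0.18, adjusted p 0.0237). The aspartate aminotransferase gene got-1.2 rose in OE (1.12 ± 0.26, adjusted p 0.0145). The gluconeogenic gene pck-2 had 0.09 ± 0.28 in gas-1 (adjusted p 0.832). The other tested pck gene, pck-1, had -1.80 ± 0.94 in gas-1 (adjusted p 0.17) and -1.62 ± 0.93 in OE (adjusted p 0.293). Neither passed, and its wild type libraries ranged from 1.57 to 142 CPM. From gas-1 to OE edgeR called 0 of the 9, 15 and 14 genes of the 3 lists, with 0, 2 and 0 at an unadjusted p under 0.05. Of all genes 1.59% were called there, and 15.9% had an unadjusted p under 0.05.

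**Figure D5:**
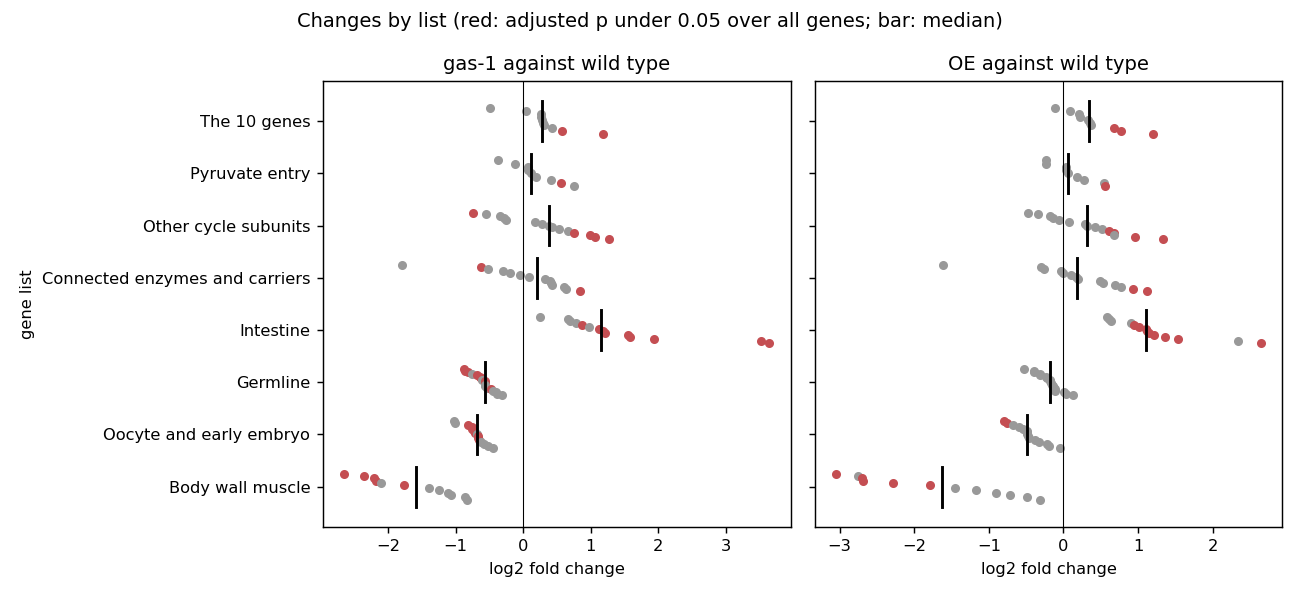
Log2 fold change against wild type of each gene (points, red where the adjusted p is under 0.05) in the 10 genes, the 3 lists of companion genes and 4 marker lists, with the median as a bar. The median of the 10 genes is 0.29 in gas-1 and 0.34 in OE, and that of the intestine markers 1.16 and 1.11.

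Markers of tissues moved in the same comparisons. Against wild type, 12.8% of all genes were called higher and 8.63% lower in gas-1, and 7.09% and 2.24% in OE. Of 14 intestine markers 9 rose and 0 fell in gas-1 (median 1.16) and 9 rose and 0 fell in OE (median 1.11) against wild type. Single intestine markers ran from 0.25 (asp-1) to 3.65 (inx-16) in gas-1 and from 0.59 (asp-1) to 2.65 (pgp-1) in OE. The log2 rises of cts-1, 1.18 and 1.2, lay within these wide ranges. The log2 changes of the other 9 genes, whether or not they passed, were below the marker medians. The part that intestine tissue plays in the levels of these genes was not tested. Of 18 germline markers 9 fell in gas-1 (median -0.57) and 0 in OE (median -0.17), and of 15 oocyte markers 8 and 2 fell (medians -0.68 and -0.49). Of 12 muscle markers 5 fell in each (medians -1.58 and -1.62). Between OE and gas-1 edgeR called 0 markers of these 4 lists, where 1.59% of all genes were called. The germline median was 0.43, with 11 of the 18 germline genes at an unadjusted p under 0.05, as were 15.9% of all genes. Of the less abundant marker lists, 0 of 7 pharynx genes, 1 of 8 neuron genes (unc-13, higher) and 1 of 4 hypodermis genes (lin-26, lower) were called in gas-1, and col-19 of hypodermis was lower in OE.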

How the data were processed

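Per the labels' protocols, total RNA was made into non-stranded full-length libraries by Smart-seq2. The submitters' processing notes name bcl2fastq 2.20, kallisto 0.44.0 and WBcel235, and the annotation release is not given in the sources used here. Per the file headers, each of the 15 deposited tables gives 61451 targets with a length in bases (other values), an estimated count that is not normalized, and a TPM value. Targets carry integers, read as lines of the deposited transcript map counted from 0. Under that reading the length equalled the Ensembl release 115 length in 99.96% of 27233 non-coding transcripts, against 53.05% with the map moved by a line. The authors' table of comparisons was not used.

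Estimated counts were summed per gene and rounded. edgeR 4.0.16 in R 4.3.3 used TMM, filterByExpr (minimum count 10) and quasi-likelihood F tests, with all 15 libraries fitted together (12 residual degrees of freedom), with Benjamini-Hochberg adjustment over 10585 genes. Errors of log2 changes are standard errors, and intervals are 95%. The common biological coefficient of variation over all tested genes was 0.527. Of the 10 genes, icl-1 had a pooled within-group SD of log2 CPM of 1.06, and the others 0.16 to 0.30. The total count per library sets the counting error, which is small beside these spreads. Marker levels are mean log2 CPM with a prior count of 2. Ratios used counts plus 1. The steps were tested on simulated data.

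Alternatives were DESeq2 1.42.0 size factors and Wald test, no filter, limma 3.58.1 on log2(TPM + 1), a replicate block, a germline marker covariate, fits without wild type replicates 1, 2 and 4, and each library left out. An intestine marker covariate and a fit without the mutant libraries numbered 2 were chosen after seeing the data. The 10 genes and all lists were chosen with earlier results of these data known. From each companion list up to 4 called genes per comparison with the smallest adjusted p are named, and other names were chosen after their values were seen. Coordinates and overlaps come from Ensembl release 115, which has the same build name.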

Additional observations from a re-analysis of the deposited data

Results flagged for a closer look

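In 1 of 30 sets of 5 libraries (10 genes in 3 groups) a library lay far from the rest by Dixon's criterion, which chance meets in about 1 set of 20. This was fum-1 in wild type replicate 5, at 113 CPM against 164 to 182 CPM in the other 4. Its gap was 0.73 of the whole range. As the lowest library of the lower group, it has no bearing on whether gas-1 and wild type overlap.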

How the results depend on the processing

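Against 24 alternatives, cts-1 was higher than wild type in both mutant groups throughout, losing its call with the germline covariate in gas-1 and the intestine covariate in both. Marker covariates differ between the groups themselves, so what they remove cannot be told apart from the group difference. The cause of each change below was not tested.

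Between gas-1 and wild type, the number of the 10 genes called was 1 without a filter, 1 on TPM, 1 without wild type replicates 1, 2 and 4, and 0 with the germline or the intestine covariate. The number of all genes called (2268) was 556 without those replicates, 158 with the germline and 146 with the intestine covariate. Between OE and wild type, the 10 genes gave 1 call on TPM, 1 without wild type replicates 1, 2 and 4, 0 with the intestine covariate and 5 without the mutant libraries numbered 2, and all genes (988) gave 1535 with DESeq2, 1597 on TPM (491 higher, 1106 lower), 144, 621 with the germline covariate, 53 and 1661. Between OE and gas-1, all genes (168) gave 514 with DESeq2, 342 on TPM and 376 with the intestine covariate. On TPM the median over all genes was, in log2, -0.32 in gas-1 and -0.37 in OE against wild type and -0.10 between OE and gas-1, and the gas-1 calls were 1194 higher and 1766 lower.

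Of the same-numbered pairs, 0, 1 and 1 of 5 had deviations correlated over 0.1 in gas-1 against wild type, OE against gas-1 (replicate 2, 0.272) and OE against wild type (replicate 4, 0.120), so numbers were not taken as pairs. With a replicate block the calls of all genes were 2139, 102 and 753 in gas-1 against wild type, OE against gas-1 and OE against wild type, and of the 10 genes 2, 0 and 3.

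With each library left out in turn, all genes gave 1319 to 2489, 85 to 380 and 512 to 1630 calls in that order, and the 10 genes 1 to 3, 0 and 2 to 5. In gas-1 against wild type, omitting wild type replicate 1 gave 1329, replicate 2 gave 1499 and replicate 5 gave 1319, and omitting gas-1 replicate 3 gave 1505 and replicate 5 gave 1504. For OE against gas-1, omitting gas-1 replicate 1 gave 85, replicate 2 gave 380 and replicate 3 gave 88, and omitting OE replicate 1 gave 97, replicate 2 gave 107 and replicate 5 gave 94. For OE against wild type, omitting wild type replicate 1 gave 571, and omitting OE replicate 1 gave 564, replicate 2 gave 1630 and replicate 4 gave 512. The icl-1 change ran from -1.14 to -0.07 in gas-1 against wild type and from 0.15 to 1.04 in OE against gas-1. Log2 changes that turned sign this way were pdha-1 in gas-1 (-0.02 to 0.20), icl-1 in OE against wild type (-0.29 to 0.32), and, between OE and gas-1, cts-1 (-0.09 to 0.12), dlst-1 (-0.13 to 0.03), fum-1 (-0.003 to 0.08), mdh-2 (-0.01 to 0.13) and pdha-1 (-0.04 to 0.11). The icl-1 to idha-1 difference between OE and wild type ran from -0.68 to 0.0005.

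Other log2 changes that turned sign were, in gas-1 against wild type, idh-1 (-0.003 with the germline and -0.13 with the intestine covariate), ogdh-1 (-0.16), dlst-1 (-0.04) and fum-1 (-0.05) with the intestine covariate, pdha-1 on TPM (-0.20) and with the germline (-0.24) and intestine covariate (-0.12), and icl-1 without wild type replicates 1, 2 and 4 (0.63). In OE against gas-1 they were cts-1 with DESeq2 scaling or test (-0.02 each) and on TPM (-0.12), idha-1 (-0.03), fum-1 (-0.10), mdh-2 (-0.07) and pdha-1 (-0.07) on TPM, dlst-1 with the germline (0.01) and intestine covariate (0.001), and pdha-1 without the mutant libraries numbered 2 (-0.002). In OE against wild type they were aco-2 (-0.15), dlst-1 (-0.17), fum-1 (-0.02), mdh-2 (-0.03) and pdha-1 (-0.27) on TPM, dlst-1 and pdha-1 with the intestine covariate (-0.04 each), and icl-1 without wild type replicates 1, 2 and 4 (1.01) or the mutant libraries numbered 2 (0.21). Without wild type replicates 1, 2 and 4 the icl-1 ratio differences between OE and wild type were 0.25 to idha-1 and 0.04 to ogdh-1. Those replicates had the highest icl-1 levels and icl-1 ratios of wild type, so the icl-1 turns without them say nothing of their own.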
